A study of Mus musculus with 14 samples.

Results

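Interferon-stimulated genes, which cells switch on when an interferon reaches its receptor, were followed in pancreatic islets of mice with and without forced NF-κB signalling in β-cells. The set was a list of 44 genes known as interferon targets. The value of a gene was that of the transcript cluster (the array's unit of measurement) whose annotation names the gene, alone or among several symbols, and the cluster with the highest mean over the arrays where several did. A listed cluster was found for 43 of the 44 genes, and Ifi44 was not analysed here. Igtp and Irgm2 share 1 cluster, so the set came to 42 clusters of 35556 on the array, or 42 of the 20738 gene entries tested. The clusters of Isg15, Ifi47 and Gbp2 also carry the symbols Gm9706, Olfr56 and Gbp2b, and that of Gbp6 also carries Gbp4, Gbp8, Gbp9, Gbp10 and Gbp11, so these values cannot be given to a single gene.

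The 14 arrays came from islets of control mice (5 arrays), Pdx-1+/- mice (4) and IKK2-CApdx-1 mice (5), which were diabetic and are called IKK2-CA here. All mice were 11 weeks old, untreated, free of specific pathogens and of a strain given as C57BL/6 and NMRI (1:1). IKK2-CA mice carried a permanently active IKK2, the kinase that sets NF-κB free, in their β-cells through the driver Pdx-1-tTA. The driver allele alone makes Pdx-1+/- mice haploinsufficient for Pdx-1, a transcription factor that β-cells need. IKK2-CA and Pdx-1+/- islets thus share the driver, whereas IKK2-CA and control islets differ in the driver as well as in IKK2. Effects of active IKK2 and of diabetes cannot be told apart, as the diabetic group was the only one with active IKK2. No label ties an array to a mouse of its own, so p-values measure the spread between these arrays, which may be technical.

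Interferons of type I bind the receptor Ifnar and, through the kinases Jak1 and Tyk2, act through a complex with Stat2 and Irf9 that binds the interferon-stimulated response element (ISRE). Interferon-gamma, made mainly by T and natural killer cells, binds Ifngr and acts through the gamma-activated site (GAS). In islets interferons are best known for their place in autoimmune and viral inflammation, where they raise antigen presentation and antiviral defence. For the comparison of the interferons the genes were put, from background knowledge, into a type I class of 21 clusters, an interferon-gamma class of 9 and a class of 12 known to answer both. The classes overlap in nature, since most of these genes answer both interferons to some degree.

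The start regions of these genes are known for the ISRE and the GAS. RefSeq promoter windows of the mouse build GRCm38.p6, from 250 bases before to 50 after a start, were matched for 33 of the 44 genes. Mx1, Mx2, Oas2, Usp18, Dhx58, Rtp4, Iigp1, Gbp6, Parp9, Parp14 and Zbp1 had no entry. The ISRE core was searched as GAAA, any 2 bases and GAAA again, the GAS as TTCNNNGAA and the κB site, which NF-κB binds, by its 10-base consensus, each on both strands and with overlapping matches counted. The ISRE core lay in the windows of 16 of the 33 genes (48.5%), against 1079 of all 27025 genes of the table (3.99%). By class it lay in 8 of 16 type I, 6 of 8 interferon-gamma and 2 of 9 shared genes. The GAS was matched in 9 of 33 (27.3%) against 9.55% of all genes, and the κB consensus in 7 of 33 (21.2%) against 9.55%. A match is only a description of these letters.

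The sequences of 3 type I genes are given to show the ISRE core on either strand and in tandem. They are read 5′ to 3′ in the direction of transcription, and capitals mark the core, which reads TTTC, any 2 bases and TTTC where it lies on the other strand. Ifit1 (chr19:34640779-34640838, plus strand) holds the core at 2 places, the nearer starting 85 bases before the start. Isg15 (chr4:156200850-156200909, minus strand) holds 3 overlapping cores, and Oas3 (chr5:120777700-120777759, minus strand) holds 1.
Ifit1: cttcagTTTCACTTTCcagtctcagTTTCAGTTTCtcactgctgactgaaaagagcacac
Isg15: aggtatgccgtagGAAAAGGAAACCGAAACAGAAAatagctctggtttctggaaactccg
Oas3: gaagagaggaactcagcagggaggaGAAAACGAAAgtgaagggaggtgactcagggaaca

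Genes of the interferon-gamma class are given next, because 6 of the 8 with a window hold the same core. The stretches are Gbp3 (chr3:142559980-142560039, plus), Gbp2 (chr3:142620579-142620638, plus), Irgm1 (chr11:48871421-48871469, minus), Igtp (chr11:58199497-58199555, plus), Irgm2 (chr11:58214888-58214947, plus) and Socs1 (chr16:10785579-10785638, minus). Capitals mark the ISRE core, and in Igtp and Irgm2 also a GAS that lies just before it. The stretches of Igtp and Irgm2 are identical at 57 of 59 bases, and these are also the genes that share 1 array cluster.
Gbp3: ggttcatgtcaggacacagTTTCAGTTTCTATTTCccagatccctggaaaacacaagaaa
Gbp2: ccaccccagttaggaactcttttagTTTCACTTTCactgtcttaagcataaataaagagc
Irgm1: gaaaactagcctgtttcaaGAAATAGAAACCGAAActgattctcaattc
Igtp: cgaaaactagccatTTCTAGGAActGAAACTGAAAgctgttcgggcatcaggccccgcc
Irgm2: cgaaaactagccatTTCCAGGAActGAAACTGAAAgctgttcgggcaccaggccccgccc
Socs1: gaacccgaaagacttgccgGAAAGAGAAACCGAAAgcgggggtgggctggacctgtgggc

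Irf1 is shown apart, since its window holds no ISRE core but both a GAS and a κB match. It encodes a transcription factor known to be induced by interferon-gamma as well as by NF-κB. The stretch is chr11:53769914-53770013 (plus strand), and capitals mark the GAS, which starts 90 bases before the start, and then the κB match, which starts 13 bases before it.
Irf1: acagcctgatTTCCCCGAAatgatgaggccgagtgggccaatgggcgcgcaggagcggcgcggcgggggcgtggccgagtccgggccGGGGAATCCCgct

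The islet origin and the quality of the arrays bear on every value. The array medians lay between 6.44 and 6.54 log2 and the highest values between 13.85 and 13.96. Hormone genes of islets lay near the top in every group (Ins2 12.64 ± 0.03, 12.62 ± 0.02 and 12.52 ± 0.12 in islets of control, Pdx-1+/- and IKK2-CA mice), but so did enzymes of the surrounding acinar tissue (Cpa1 13.64, 13.67 and 13.67). Pdx1 fell from 8.23 ± 0.39 in control to 6.67 ± 0.55 in IKK2-CA islets (limma, adjusted p = 0.00506) and read 7.14 ± 0.21 in Pdx-1+/- islets, below every control array. Ikbkb, the gene of IKK2, read 7.43 ± 0.09, 7.41 ± 0.18 and 7.68 ± 0.22, with overlapping arrays. Marker genes of intestine averaged 2.51 log2 above their mean on Pdx-1+/- array 4 and 1.11 above it on control array 3, and those of fat 2.54 above it on IKK2-CA array 5. The overall counts and class medians are also given without these arrays, as are members shown on every array where their difference moves by over 1.5 times. Differences of the remaining members are over all 14 arrays.

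Against Pdx-1+/- islets, all 42 clusters of the set had the higher mean in IKK2-CA islets, where 45.1% of all entries did. The differences ran from 0.09 for Isg20 to 1.51 for the Gbp6 cluster on the log2 scale, where 1 is a 2-fold change, with a median of 0.65 (1.57-fold) beside −0.014 over all entries. None passed limma's test at an adjusted p (Benjamini-Hochberg over all entries) under 0.05, where 0.0964% of all entries did, and the lowest adjusted p was 0.147, of Ifit1. At an unadjusted p under 0.05 there were 32 of 42, against 4.35% of all entries. In 18 of 42 every IKK2-CA array lay above every Pdx-1+/- array, against 1.74% of all entries, and 35 of 42 lay among the highest 5% of all differences. In bulk islets, more cells of a type and more RNA per cell cannot be told apart.

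Against control islets, 39 of the 42 clusters were higher in IKK2-CA islets (46.6% of all entries), and Isg20 (−0.08), Irf1 (−0.08) and Cmpk2 (−0.03) were lower (53.4% of all entries). The median was 0.56 (1.48-fold) beside −0.011 over all entries, and the highest was 1.46, of Irf7. Rtp4 and the Gbp6 cluster rose at an adjusted p under 0.05, which is 2 of 42 against 0.69% of all entries. Both lay close to the threshold, and the count ran from 0 to 5 when single arrays were left out. It was 0 without control array 1, 3, 4 or 5, Pdx-1+/- array 1, 2 or 3 or IKK2-CA array 3, it was 1 without IKK2-CA array 5, and it was 4 or 5 without control array 2, Pdx-1+/- array 4 or IKK2-CA array 1 or 4. Unadjusted, 28 of 42 had p under 0.05 with a higher mean (6.31% of all entries), and in 9 of 42 no arrays overlapped (1.87%): Ifit1, Irf7, Ifih1, Dhx58, Rtp4, Ifi47, the Gbp6 cluster, Stat2 and Parp14. Both comparisons use the same IKK2-CA arrays.

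Between Pdx-1+/- and control islets no cluster of the set was past the threshold, where 0% of all entries rose and 0.0868% fell, and none had an unadjusted p under 0.05, where 1.27% were higher and 3.4% lower. Pdx-1+/- islets were the lower in 32 of 42 (51.5% of all entries), with a median of −0.07 and a range of −0.54 to 0.09. In none of the 42 did the arrays of these groups separate, where 0.492% of all entries lay above and 1.36% below. Without Pdx-1+/- array 4 the direction turned, with 25 of 42 higher and a median of 0.026, and without control array 3 and IKK2-CA array 5 as well, 19 of 42 were higher with a median of −0.033.

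**Figure D1:**
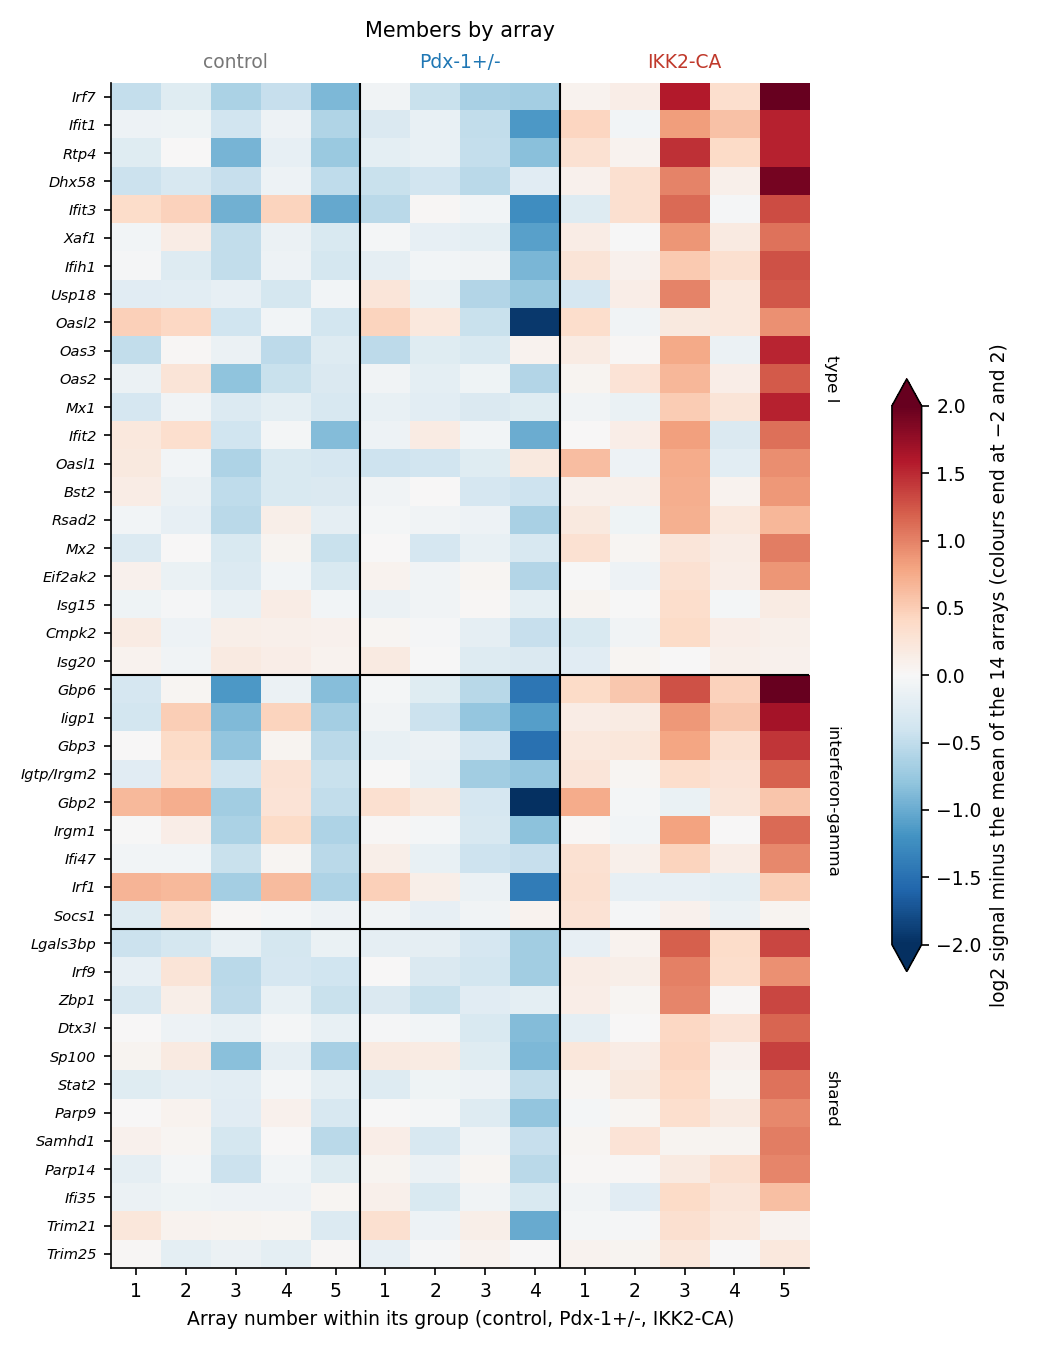
Each row is 1 of the 42 clusters, ordered within its class by the difference of IKK2-CA against Pdx-1+/- islets, each column an array, and the colour the log2 signal minus the mean of the 14 arrays (red above, blue below). IKK2-CA array 5 was the highest of all 14 for 32 clusters and Pdx-1+/- array 4 the lowest for 28.

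Single arrays carried much of these differences. Averaged over the 42 clusters as a deviation from the mean of the 14 arrays, IKK2-CA arrays 1 to 5 read 0.11, 0.06, 0.60, 0.16 and 1.04. Control arrays read −0.05, 0.06, −0.42, −0.04 and −0.39, and Pdx-1+/- arrays −0.04, −0.13, −0.26 and −0.71. IKK2-CA arrays 1, 3, 4 and 5 lay above every array of the other groups, and array 2 stood level with control array 2. Arrays 3 and 5 were the highest pair of their group in 32 of 42 clusters (76.2%), where the same pair was highest in 11.8% of all entries. Controls were divided too, with arrays 3 and 5 the lowest pair in 28 of 42 (66.7%, against 10.4%) and in 8 of the 9 interferon-gamma clusters.

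The spread inside the groups was accordingly wide. The median standard deviation over the 42 clusters was 0.242 in control, 0.287 in Pdx-1+/- and 0.453 in IKK2-CA islets, beside 0.143, 0.158 and 0.171 over all entries. The clusters moved together across these arrays. The deviation of a cluster from its group means correlated with that of the mean of the others at a median r of 0.841 over the 14 arrays. This is a description, since all share the same hybridizations, and no such value is given for all entries. Within their groups, IKK2-CA array 5 was the highest for 33 of the 42 clusters (22.1% of all entries). Pdx-1+/- array 4 was the lowest for 34 (33.6%). Nearest to the common course were Gbp6 (r = 0.98), Parp9 (0.958) and Xaf1 (0.957). Farthest from it were Socs1 (−0.04), Trim25 (0.14), Isg20 (0.34) and Oasl1 (0.42).

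Without IKK2-CA array 5 and Pdx-1+/- array 4, the differences were smaller. IKK2-CA islets were then the higher in 41 of 42 clusters against Pdx-1+/- islets, with a median of 0.35 in place of 0.65, and the exception was Irf1 at −0.21. None of the 42 was past the threshold, where 0.28% of all entries were, and arrays did not overlap in 20 of 42 (47.6%) against 4.3% of all entries. Against control islets 39 of 42 were higher with a median of 0.40, and Ifit1, Ifih1, Dhx58 and the Gbp6 cluster rose, where 0.935% of all entries did. In 9 of 42 (21.4%) no arrays overlapped, against 2.44% of all entries. With control array 3 left out as well, 38 of 42 were higher than in control islets with a median of 0.341, and none was past the threshold (limma, lowest adjusted p = 0.0605), where 0.458% of all entries were. Among members shown on every array, the log2 difference from Pdx-1+/- islets moved by over 1.5 times without IKK2-CA array 5 and Pdx-1+/- array 4 for Irf1, as given, and to 0.94 for the Gbp6 cluster, 0.76 for Ifit1, 0.60 for Lgals3bp, 0.59 for Gbp3, 0.51 for Igtp/Irgm2, 0.41 for Usp18, 0.32 for Stat2 and 0.26 for Dtx3l. The difference from control islets, with control array 3 also left out, moved as far for Zbp1 (0.49), Iigp1 (0.45), Gbp3 (0.41), Stat2 (0.33), Igtp/Irgm2 (0.24), Dtx3l (0.20) and Irf1 (−0.39).

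**Figure D2:**
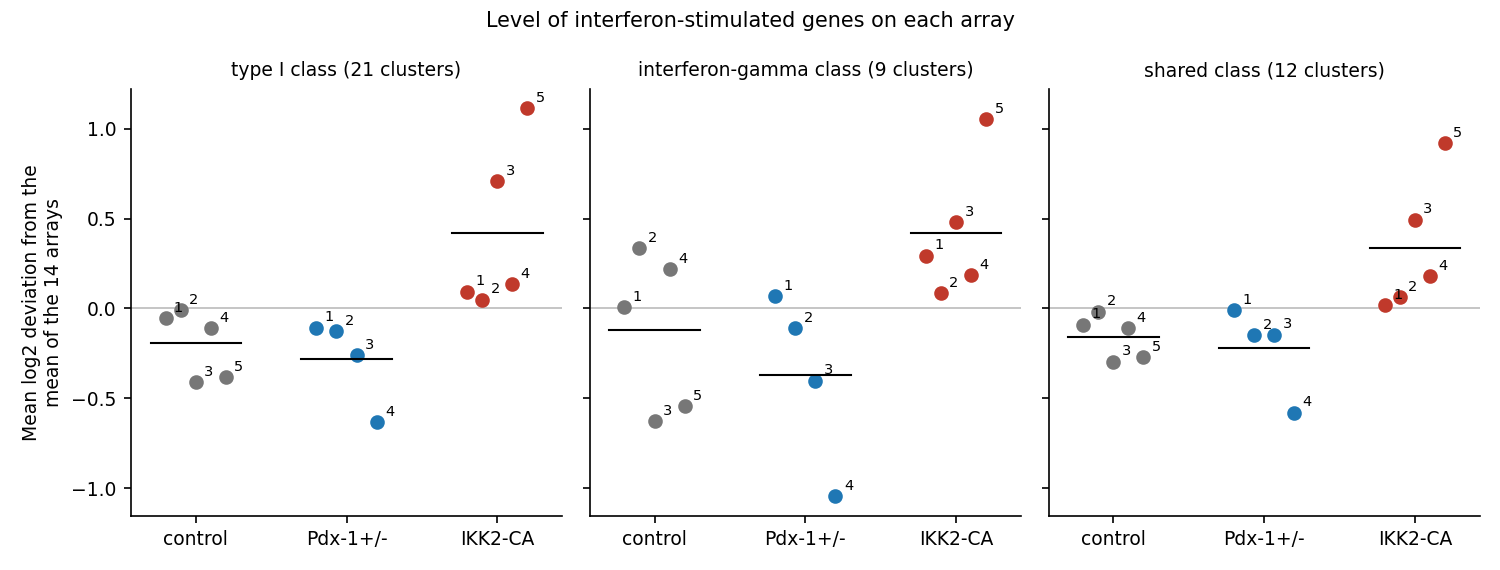
Points give, for each array (numbered within its group), the mean log2 deviation of the clusters of a class from the mean of the 14 arrays, and bars the group means. The IKK2-CA points lie from 0.05 to 1.11 in the type I class and from 0.09 to 1.05 in the interferon-gamma class, where control arrays spread from −0.63 to 0.33.

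The type I and the interferon-gamma class overlapped in the size of their differences. Against Pdx-1+/- islets the median difference was 0.70 over 21 type I clusters, 0.73 over 9 interferon-gamma clusters and 0.58 over the 12 shared clusters. Against control islets it was 0.62, 0.53 and 0.47. Without IKK2-CA array 5 and Pdx-1+/- array 4 these medians were 0.391, 0.396 and 0.21 against Pdx-1+/- islets. Without IKK2-CA array 5 they were 0.451, 0.34 and 0.29 against control islets, and without control array 3 and Pdx-1+/- array 4 too, 0.384, 0.237 and 0.236. With all arrays, type I clusters with an unadjusted p under 0.05 numbered 16 of 21 against Pdx-1+/- (4.35% of all entries) and 15 of 21 against control islets (6.31%), and interferon-gamma clusters 6 and 5 of 9. On single arrays the type I mean minus the interferon-gamma mean ran from −0.20 to 0.23 in IKK2-CA, from −0.34 to 0.22 in control and from −0.17 to 0.41 in Pdx-1+/- islets, so the groups overlapped throughout. The classes parted in their spread among controls, with a median standard deviation of 0.236 for type I and 0.475 for interferon-gamma clusters. They parted also between Pdx-1+/- and control islets, where all 9 interferon-gamma clusters were lower (median −0.31) and 14 of 21 type I clusters were (median −0.05). Without Pdx-1+/- array 4 these medians were −0.027 and 0.029, with 4 of 9 interferon-gamma clusters higher. No test was made of a class.

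**Figure D3:**
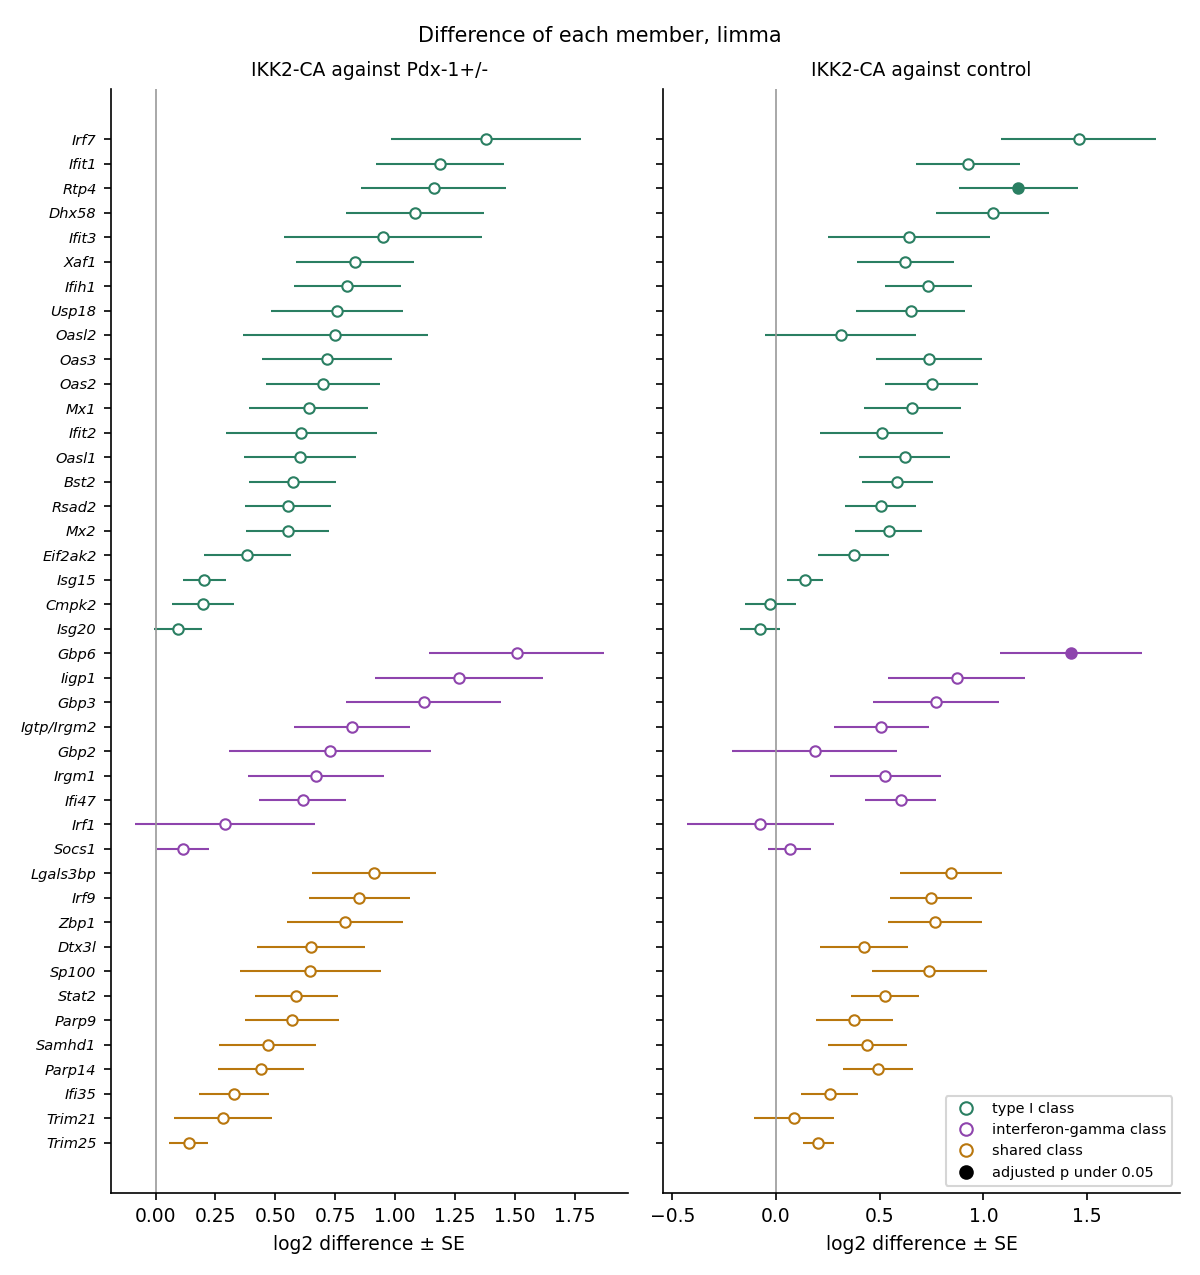
Points are limma's log2 differences of the 42 clusters, with bars of 1 standard error, for IKK2-CA against Pdx-1+/- islets (left) and against control islets (right); filled points passed an adjusted p of 0.05. All points lie right of 0 on the left side, and Rtp4 and Gbp6 are the filled points on the right.

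No interferon gene passed the test. Type I, type III or gamma interferon genes were carried by 12 clusters. Of these, 4 had the higher mean in IKK2-CA than in Pdx-1+/- islets (45.1% of all entries) and 8 than in control islets (46.6%). None was past the threshold or an unadjusted p of 0.05 in either comparison, and the medians were −0.02 and 0.02. Ifnb1, the first type I interferon that many cells release, read 5.74 ± 0.60 in control, 5.76 ± 0.30 in Pdx-1+/- and 5.93 ± 0.43 in IKK2-CA islets. Ifng, the gene of interferon-gamma, read 5.44, 5.63, 5.33, 5.28 and 5.21 on control, 5.25, 5.54, 4.78 and 5.06 on Pdx-1+/- and 5.46, 5.25, 6.37, 5.01 and 5.99 on IKK2-CA arrays 1 to 5. Its 2 highest values were thus IKK2-CA arrays 3 and 5, while the others of that group lay within the control range or below it. The difference was 0.46 ± 0.23 (SE) against Pdx-1+/- islets (limma, adjusted p = 0.761) and 0.24 ± 0.22 against control islets (adjusted p = 0.691).

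Among receptors and kinases, Ifngr2, the signalling chain of the interferon-gamma receptor, rose against control islets, from 9.47 ± 0.12 to 10.09 ± 0.31 (log2 difference 0.62 ± 0.13 SE, limma adjusted p = 0.0225). It was the 1 of 10 clusters of that list past the threshold, where 0.69% of all entries rose. Its limma adjusted p was 0.0182 without IKK2-CA array 5 and Pdx-1+/- array 4, where Jak2 passed as well (0.43, adjusted p = 0.0169) and 0.935% of all entries rose. The call was lost without control array 3, 4 or 5 or IKK2-CA array 3, with an adjusted p of up to 0.0806. Every IKK2-CA array lay above every control and Pdx-1+/- array, and the difference from Pdx-1+/- islets was 0.51 (adjusted p = 0.286). Jak2, a kinase bound to that receptor, was apart from both other groups in the same way, at 7.98 ± 0.11, 7.997 ± 0.10 and 8.61 ± 0.45 in islets of control, Pdx-1+/- and IKK2-CA mice, with adjusted p = 0.0657 against control and 0.34 against Pdx-1+/- islets. The binding chain Ifngr1 read 9.74 ± 0.27, 9.66 ± 0.53 and 9.95 ± 0.32, and the type I receptor chain Ifnar1 8.18 ± 0.04, 8.24 ± 0.25 and 8.39 ± 0.25. Neither passed the test. For Ifnar1 too, every IKK2-CA array lay above every control array (8.22 at the lowest, beside 8.21), though not above every Pdx-1+/- array. In this list of 10, arrays separated upward in 3 clusters against control islets (1.87% of all entries). Against Pdx-1+/- islets they did so in 2 (1.74%).

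Irf9 and Stat2, parts of the type I complex, both had higher values in IKK2-CA islets. Irf9, the DNA-binding part, read 7.54, 7.97, 7.17, 7.37 and 7.32 on control arrays 1 to 5, 7.71, 7.42, 7.34 and 7.01 on Pdx-1+/- arrays 1 to 4 and 7.86, 7.83, 8.72, 8.07 and 8.62 on IKK2-CA arrays 1 to 5. All IKK2-CA arrays were above the Pdx-1+/- arrays, and control array 2 reached into their range. The difference was 0.85 ± 0.21 (SE) against Pdx-1+/- (limma, adjusted p = 0.229) and 0.75 ± 0.20 against control islets (adjusted p = 0.0677). Stat2, which carries the complex's activating domain, read 7.30, 7.38, 7.34, 7.52 and 7.36 on control, 7.29, 7.46, 7.45 and 7.06 on Pdx-1+/- and 7.59, 7.74, 7.95, 7.61 and 8.64 on IKK2-CA arrays. Here the IKK2-CA arrays lay above all others, array 5 farthest. The differences were 0.59 ± 0.17 (adjusted p = 0.352) and 0.53 ± 0.16 (adjusted p = 0.117), the latter 0.34 without IKK2-CA array 5.

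Irf7, the factor that amplifies type I interferon output once a response has begun, had the largest difference from control islets of the set. It read 6.45, 6.68, 6.29, 6.46 and 6.02 on control, 6.85, 6.48, 6.27 and 6.24 on Pdx-1+/- and 6.99, 7.06, 8.52, 7.25 and 9.38 on IKK2-CA arrays. No IKK2-CA array overlapped the others, but arrays 3 and 5 were more than 1 log2 unit above the remaining ones. The difference was 1.38 ± 0.40 (SE, 2.6-fold) against Pdx-1+/- (limma, adjusted p = 0.34) and 1.46 ± 0.37 (2.75-fold) against control islets (adjusted p = 0.0609). Its promoter window held none of the 3 motifs.

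Irf1, whose stretch with a GAS and a κB match is printed above, did not follow Irf7. It read 9.996, 9.98, 8.65, 9.95 and 8.70 on control, 9.79, 9.44, 9.21 and 7.92 on Pdx-1+/- and 9.64, 9.16, 9.15, 9.13 and 9.81 on IKK2-CA arrays. Controls fell apart into 3 arrays near 10 log2 and arrays 3 and 5 at 8.65 and 8.70, and the IKK2-CA arrays lay between them. The difference was 0.29 ± 0.38 (SE) against Pdx-1+/- (limma, adjusted p = 0.965) and −0.08 ± 0.35 against control islets (adjusted p = 0.959), and its sign turned without Pdx-1+/- array 4 (−0.10 against Pdx-1+/- islets) or without control array 1 (0.06 against control islets), 2 or 4 (0.05 each). A second Irf1 cluster, of lower mean, read 6.07, 5.95 and 5.90 in islets of control, Pdx-1+/- and IKK2-CA mice.

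**Figure D4:**
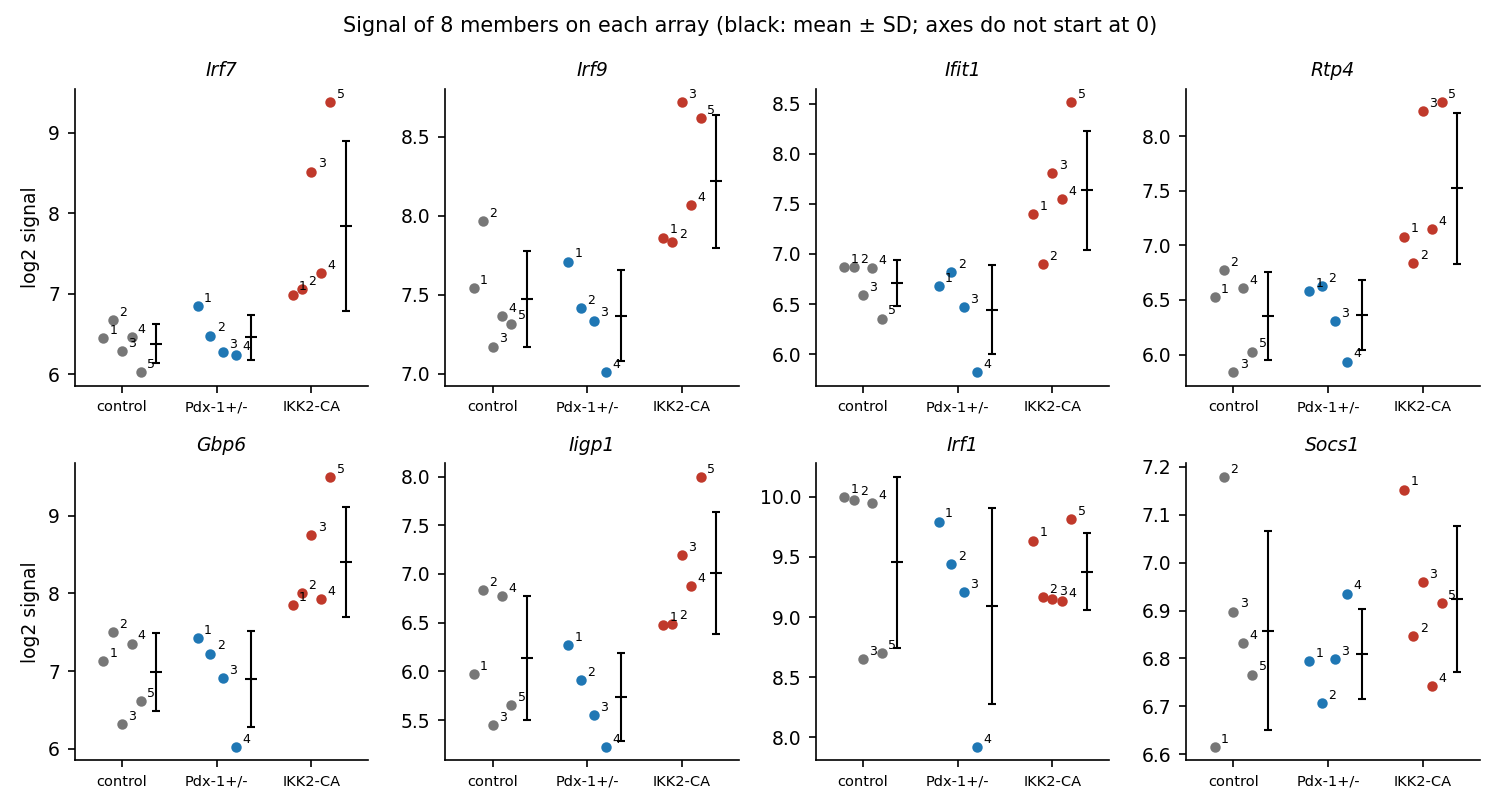
Each panel shows the log2 signal of a gene on every array, numbered within its group, with the group mean ± SD in black; axes do not start at 0. IKK2-CA arrays 3 and 5 are the highest points for Irf7, Irf9, Ifit1, Rtp4, Gbp6 and Iigp1, which is not so for Irf1 and Socs1.

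Other factors of the Irf family and the sensors that start interferon production were looked at beside the set. Irf8, a factor of dendritic cells and macrophages that interferon-gamma induces, rose against control islets from 7.35 ± 0.28 to 8.44 ± 0.68 (1.09 ± 0.25 SE, limma adjusted p = 0.0417; 0.0157 without IKK2-CA array 5 and Pdx-1+/- array 4), with adjusted p = 0.129 against Pdx-1+/- islets. Its call was past the threshold in 5 of the 14 fits that left out 1 array, those without control array 2, Pdx-1+/- array 4 or IKK2-CA array 1, 4 or 5, and the adjusted p reached 0.132 in the others. Irf2 and Irf4, the other members of that list of 3 clusters, did not pass. Against control islets 0.69% of all entries rose. Of 14 clusters of sensors and their adaptors, 11 were higher in either comparison (45.1% and 46.6% of all entries against Pdx-1+/- and control islets). None was past the threshold, and 6 were higher at an unadjusted p under 0.05 in each (4.35% and 6.31%). Without IKK2-CA array 5 and Pdx-1+/- array 4, Irf5 (0.64, limma adjusted p = 0.026) and Tlr3 (0.35, adjusted p = 0.0447), sensor of double-stranded RNA, rose against control islets, where 0.935% of all entries did. The widest differences were those of Irf5 (0.88 against Pdx-1+/- and 0.90 against control islets), Tmem173 (Sting1; 0.79 and 0.79) and Tlr9 (0.78 and 0.69). Irf3, which is present before any response, read 7.96 ± 0.10, 8.04 ± 0.21 and 7.93 ± 0.09.

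Of the type I effectors, Rtp4 rose against control islets. It encodes a receptor chaperone that interferon induces, and it read 6.53, 6.77, 5.84, 6.61 and 6.03 on control, 6.58, 6.63, 6.30 and 5.94 on Pdx-1+/- and 7.08, 6.84, 8.23, 7.15 and 8.31 on IKK2-CA arrays. Every IKK2-CA array lay above the others, array 2 by less than 0.1 log2. The difference was 1.17 ± 0.29 (SE, 2.25-fold) against control (limma, adjusted p = 0.0494) and 1.16 ± 0.30 against Pdx-1+/- islets (adjusted p = 0.275). Its call was lost without IKK2-CA array 5 and Pdx-1+/- array 4 (0.97, adjusted p = 0.0691). When single arrays were left out, Rtp4 was past the threshold only without control array 2, Pdx-1+/- array 4 or IKK2-CA array 2 or 4.

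Ifit1, which binds foreign RNA by its unmethylated cap, read 6.87, 6.87, 6.59, 6.86 and 6.36 on control, 6.68, 6.82, 6.47 and 5.82 on Pdx-1+/- and 7.40, 6.90, 7.81, 7.55 and 8.51 on IKK2-CA arrays. IKK2-CA array 2 lay just above the highest controls and the other IKK2-CA arrays well clear of them. The difference was 1.19 ± 0.27 (SE, 2.28-fold) against Pdx-1+/- (limma, adjusted p = 0.147) and 0.93 ± 0.25 against control islets (adjusted p = 0.0753; 0.0435 without IKK2-CA array 5 and Pdx-1+/- array 4). Dhx58, a helper of the RNA sensors of the cytosol, read 5.33, 5.44, 5.29, 5.64 and 5.25 on control, 5.31, 5.36, 5.21 and 5.52 on Pdx-1+/- and 5.83, 6.07, 6.75, 5.86 and 7.66 on IKK2-CA arrays. Its IKK2-CA arrays did not overlap those of the other groups either, and IKK2-CA arrays 3 and 5 again stood out. The differences were 1.08 ± 0.29 (adjusted p = 0.29) and 1.05 ± 0.27 (adjusted p = 0.0643; 0.0327 without those 2 arrays).

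The other type I clusters are given by their differences from Pdx-1+/- and control islets, none of them past the threshold. Ifit2 and Ifit3, neighbours of Ifit1 on chromosome 19, differed by 0.61 and 0.51 and by 0.95 and 0.64, and on Ifit3 control arrays 3 and 5 lay more than 1 log2 unit under the other controls. The sensor Ifih1, which binds long double-stranded RNA, differed by 0.80 and 0.74 with no overlap between IKK2-CA and other arrays. The oligoadenylate synthetases, which start RNA decay, and their relatives differed by 0.70 and 0.75 (Oas2), 0.72 and 0.74 (Oas3), 0.60 and 0.62 (Oasl1) and 0.75 and 0.31 (Oasl2). Pdx-1+/- array 4 read 7.34 for Oasl2 and 5.47 for Ifit2. The other Pdx-1+/- arrays read from 8.82 to 9.71 and from 6.36 to 6.63. IKK2-CA array 5 read 10.18 and 7.57, beside 9.20 to 9.62 and 6.17 to 7.30 on the other IKK2-CA arrays. Differences without these arrays are not given here.

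The GTPases Mx1 and Mx2 differed by 0.64 and 0.66 and by 0.55 and 0.54. Their means over the 14 arrays, 4.48 and 4.48, were the lowest of the set. IKK2-CA array 5 read 6.01 for Mx1 and 5.51 for Mx2, and the other IKK2-CA arrays from 4.34 to 4.99 and from 4.52 to 4.79. Values for Rsad2, which blocks viral growth at membranes, were 0.55 and 0.50, for Bst2, which tethers budding viruses, 0.57 and 0.59, for the protein kinase Eif2ak2 0.38 and 0.37, and for Xaf1 0.83 and 0.62. Xaf1 read 5.13 on Pdx-1+/- array 4 and from 6.02 to 6.18 on the other Pdx-1+/- arrays. The smallest differences of the class were those of Isg20, Cmpk2 and Isg15. Isg20, an exonuclease, differed by 0.09 and −0.08 at a mean of 9.71 over the 14 arrays, Cmpk2, a mitochondrial nucleotide kinase, by 0.20 and −0.03 at 7.37, and the Isg15 cluster by 0.20 and 0.14 at 4.84. Isg15 is the ubiquitin-like protein whose window holds the 3 cores printed above.

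Of the interferon-gamma class, the Gbp6 cluster of guanylate-binding proteins, which attack the vacuoles of intracellular microbes, had the largest difference of the whole set from Pdx-1+/- islets. It read 7.13, 7.50, 6.32, 7.35 and 6.61 on control, 7.43, 7.23, 6.91 and 6.03 on Pdx-1+/- and 7.85, 8.001, 8.75, 7.93 and 9.50 on IKK2-CA arrays. The IKK2-CA arrays lay above all others. It rose by 1.42 ± 0.34 (SE, 2.68-fold) against control islets (limma, adjusted p = 0.047, and 0.0867 without IKK2-CA array 5 alone). From Pdx-1+/- islets it differed by 1.51 ± 0.36 (adjusted p = 0.227). When single arrays were left out, its call against control islets stood only without control array 2, Pdx-1+/- array 4 or IKK2-CA array 1 or 4. Gbp3, of the same family, read 6.86, 7.24, 6.07, 6.91 and 6.32 on control, 6.70, 6.73, 6.52 and 5.36 on Pdx-1+/- and 7.07, 7.08, 7.64, 7.18 and 8.28 on IKK2-CA arrays. It was apart from the Pdx-1+/- arrays but not from control array 2, with differences of 1.12 ± 0.32 (adjusted p = 0.34) and 0.77 ± 0.30 (adjusted p = 0.221). Gbp2, whose window holds an ISRE core and a κB match, differed by 0.73 and 0.19, with Pdx-1+/- array 4 at 6.86 and the other arrays from 8.15 to 9.59.

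The immunity-related GTPases, which mark such vacuoles, had wide spreads in control islets. Iigp1 read 5.97, 6.83, 5.45, 6.77 and 5.65 on control, 6.27, 5.91, 5.55 and 5.23 on Pdx-1+/- and 6.48, 6.49, 7.19, 6.88 and 7.998 on IKK2-CA arrays. Control arrays 2 and 4 lay among the IKK2-CA arrays, while the other controls lay with the Pdx-1+/- arrays. The difference was 1.27 ± 0.35 (SE, 2.41-fold) against Pdx-1+/- (limma, adjusted p = 0.317) and 0.87 ± 0.33 against control islets (adjusted p = 0.198). The cluster of Igtp and Irgm2 read 6.81, 7.38, 6.63, 7.33 and 6.58 on control, 7.04, 6.89, 6.34 and 6.27 on Pdx-1+/- and 7.28, 7.07, 7.38, 7.31 and 8.22 on IKK2-CA arrays. It showed the same order, with control arrays 2 and 4 among the IKK2-CA arrays and array 5 alone above 8. The differences were 0.82 ± 0.24 (adjusted p = 0.352) and 0.51 ± 0.23 (adjusted p = 0.301), the latter 0.32 without IKK2-CA array 5. Irgm1 differed by 0.67 and 0.53 and the cluster of Ifi47 by 0.61 and 0.60, the latter at a low mean of 4.77 over the 14 arrays.

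Of the shared class, Lgals3bp, a secreted glycoprotein that binds galectin, had the largest difference from Pdx-1+/- islets. It read 10.35, 10.43, 10.63, 10.42 and 10.65 on control, 10.60, 10.60, 10.44 and 10.08 on Pdx-1+/- and 10.62, 10.85, 11.98, 11.15 and 12.11 on IKK2-CA arrays. Arrays 3 and 5 were more than 1 log2 unit above IKK2-CA array 1, which lay within the control range. The differences were 0.91 ± 0.26 (SE; limma, adjusted p = 0.329) and 0.84 ± 0.24 (adjusted p = 0.0929). Zbp1, a sensor of nucleic acids in the Z form, read 5.997, 6.43, 5.79, 6.17 and 5.87 on control, 6.02, 5.87, 6.09 and 6.13 on Pdx-1+/- and 6.45, 6.36, 7.29, 6.35 and 7.65 on IKK2-CA arrays. Control array 2 reached into the IKK2-CA range, and the differences were 0.79 ± 0.24 (adjusted p = 0.382) and 0.77 ± 0.23 (adjusted p = 0.101).

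Dtx3l, a ubiquitin ligase that works with Parp9, read 7.77, 7.67, 7.61, 7.72 and 7.61 on control, 7.74, 7.71, 7.46 and 6.90 on Pdx-1+/- and 7.59, 7.77, 8.17, 8.04 and 8.92 on IKK2-CA arrays. IKK2-CA array 1 lay just under the controls, array 2 level with the highest of them and the others above, and the differences were 0.65 ± 0.22 (SE; limma, adjusted p = 0.502) and 0.42 ± 0.21 (adjusted p = 0.365), the latter 0.22 without IKK2-CA array 5. Parp9 and Parp14, its neighbours on chromosome 16, differed by 0.57 and 0.38 and by 0.44 and 0.49. The nuclear body protein Sp100 differed by 0.65 and 0.74, the nucleotide hydrolase Samhd1 by 0.47 and 0.44 and Ifi35 by 0.33 and 0.26. The ubiquitin ligases Trim21 and Trim25 had the smallest differences from Pdx-1+/- islets in this class, 0.28 and 0.14. Pdx-1+/- array 4 read 6.38 for Parp9, 7.21 for Sp100 and 6.59 for Trim21. The other Pdx-1+/- arrays read at least 6.92, 7.88 and 7.51. IKK2-CA array 5 read 8.14 for Parp9, 9.48 for Sp100 and 10.03 for Samhd1, and the other IKK2-CA arrays at most 7.51, 8.54 and 9.27. Differences without these arrays are not given here.

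Neither brake of the response within the set passed the test. Usp18, which strips Isg15 from proteins and silences the type I receptor, read 8.13, 8.13, 8.17, 7.999 and 8.29 on control, 8.59, 8.21, 7.76 and 7.58 on Pdx-1+/- and 8.01, 8.47, 9.34, 8.56 and 9.59 on IKK2-CA arrays. Arrays 3 and 5 stood above 9, and IKK2-CA array 1 lay within the control range. The differences were 0.76 ± 0.28 (SE; limma, adjusted p = 0.543) and 0.65 ± 0.26 (adjusted p = 0.232). Socs1, which blocks the Jak kinases and is induced by interferon-gamma, read 6.62, 7.18, 6.90, 6.83 and 6.77 on control, 6.79, 6.71, 6.80 and 6.94 on Pdx-1+/- and 7.15, 6.85, 6.96, 6.74 and 6.92 on IKK2-CA arrays. The groups overlapped fully, the differences were 0.11 ± 0.11 (adjusted p = 0.93) and 0.07 ± 0.10 (adjusted p = 0.847), and arrays 3 and 5 did not stand out. A further list of 5 brakes outside the set had none past the threshold and 1 higher at an unadjusted p under 0.05 in each comparison (4.35% and 6.31% of all entries). In it the Stat inhibitor Cish differed by 0.67 and 0.53 and the phosphatase Ptpn6 by 0.40 and 0.37.

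Clusters of genes with and without an ISRE core in their window had medians close to each other. The 15 clusters of genes with an ISRE core in their window had a median difference of 0.67 from Pdx-1+/- and 0.53 from control islets. The 16 clusters of genes with a window but without the core had medians of 0.61 and 0.47. Among the genes printed above, Socs1 and Isg15 held 2 and 3 cores and had differences of 0.11 and 0.20 from Pdx-1+/- islets, while Ifit1 with 2 cores had 1.19.

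Genes outside the set that interferons are known to induce were counted as a second list of 35 clusters. All 35 were higher in IKK2-CA than in Pdx-1+/- islets (45.1% of all entries), with a median of 0.54. None was past the threshold, where 0.0964% of all entries were, and 22 had an unadjusted p under 0.05 (4.35%). Against control islets 33 of 35 were higher (46.6% of all entries) with a median of 0.51, and 4 rose, where 0.69% of all entries did. These were Ifi209, a nucleic acid binder of the Ifi200 family, from 4.48 ± 0.28 to 6.49 ± 1.19 (2.01 ± 0.42 SE, limma adjusted p = 0.0247), the lysosomal thiol reductase Ifi30 from 9.16 ± 0.19 to 10.23 ± 0.62 (1.07 ± 0.25, 0.0429), Ifi27 from 8.88 ± 0.18 to 9.86 ± 0.60 (0.98 ± 0.22, 0.0365) and Epsti1 from 6.30 ± 0.19 to 7.12 ± 0.54 (0.82 ± 0.20, 0.0496). Without IKK2-CA array 5 and Pdx-1+/- array 4, 31 of 35 were higher against Pdx-1+/- and 33 of 35 against control islets. The medians were then 0.221 and 0.333, and 6 clusters rose against control islets, where 0.935% of all entries did. The 6 were those of Ifi209, Ifi27, Ifi30, Trim30a, Gbp7 and Oas1a, the last shared with Oas1g. When single arrays were left out, Ifi209 lost its call without control array 1, 3, 4 or 5 or IKK2-CA array 3, and all 4 lost it without control array 1, 3, 4 or 5. Ifi27 was past the threshold in 6, Ifi30 in 4 and Epsti1 in 3 of the 14 fits, with adjusted p of up to 0.118, 0.129 and 0.144.

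Genes upstream and downstream of interferon-gamma gave 2 further calls among 10 clusters, where 0.69% of all entries rose against control islets. Against Pdx-1+/- and control islets alike, 7 of the 10 were higher (45.1% and 46.6% of all entries) and 3 lower. Il18 had the lowest difference in both, −0.28 and −0.22. At an unadjusted p under 0.05 (limma), 7 were higher in each comparison (4.35% and 6.31% of all entries). Against Pdx-1+/- islets 1 was lower at that level, as were 549 of all 20738 entries. Ciita, the switch of MHC class II genes, rose against control islets from 5.76 ± 0.23 to 6.74 ± 0.54 (0.98 ± 0.20 SE, limma adjusted p = 0.0226). Il12b, a subunit of the cytokine that makes T cells release interferon-gamma, rose from 5.16 ± 0.26 to 6.13 ± 0.50 (0.96 ± 0.22, adjusted p = 0.0376). Both also passed without IKK2-CA array 5 and Pdx-1+/- array 4, at limma adjusted p = 0.00421 and 0.0435, and there they rose against Pdx-1+/- islets too (0.0487 and 0.0461). Of all entries, 0.935% rose there against control and 0.28% against Pdx-1+/- islets. Ciita lost its call without control array 1, 3 or 4 or IKK2-CA array 3 (up to 0.0705), and Il12b without control array 1, 3, 4 or 5, Pdx-1+/- array 2 or 3 or IKK2-CA array 2, 3 or 5 (up to 0.124). The chemokine Cxcl9, a target of interferon-gamma that draws T cells, read 6.26 ± 0.70, 6.01 ± 0.33 and 8.13 ± 1.26 in islets of control, Pdx-1+/- and IKK2-CA mice (adjusted p = 0.0654 against control and 0.229 against Pdx-1+/- islets). Its relative Cxcl10 read 7.77 ± 0.72, 7.55 ± 0.46 and 8.94 ± 0.78 (adjusted p = 0.135 and 0.341).

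Markers of some leukocytes were higher in IKK2-CA islets. Of 9 markers of conventional dendritic cells, all were higher in IKK2-CA islets, and 4 rose against Pdx-1+/- (Itgax, Itgae, Xcr1 and Ccr7) and 7 against control islets. Of all entries, 0.0964% and 0.69% rose. The 4 calls against Pdx-1+/- islets were all lost without any 1 of the Pdx-1+/- arrays or IKK2-CA array 3. With both IKK2-CA array 5 and Pdx-1+/- array 4 left out, 6 of the 9 rose against Pdx-1+/- islets, where 0.28% of all entries did. Of the 7 calls against control islets, Cd209a lost its own without control array 1 or 3, and the other 6 were past the threshold in all 14 fits. Their mean deviation was 0.53, 0.65, 0.73, 0.53 and 1.68 on IKK2-CA arrays 1 to 5 and between −0.65 and −0.26 on the other arrays. Itgax, which encodes the integrin chain CD11c, rose from 5.70 ± 0.26 in control to 7.86 ± 0.87 in IKK2-CA islets (limma, adjusted p = 0.00427), and its adjusted p was 4.94e-05 without IKK2-CA array 5 and Pdx-1+/- array 4. Zbtb46 and Batf3, which also mark these cells, differed by 0.02 and 0.13. IKK2-CA arrays 1, 2 and 4 had dendritic cell values of 0.53, 0.65 and 0.53 beside values of the interferon-stimulated set of 0.11, 0.06 and 0.16. The part of these cells in the result was not tested.

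T-cell markers were highest on IKK2-CA arrays 3 and 5. Their mean deviation over 9 clusters was −0.02, 0.10, 0.79, −0.29 and 0.99 on IKK2-CA arrays 1 to 5 and between −0.37 and −0.03 on all others. None of the 9 passed the test although all were higher in both comparisons. At an unadjusted p under 0.05 (limma) there were 4 against Pdx-1+/- and 5 against control islets. Of all entries, 4.35% and 6.31% were higher at that level. Of 6 B-cell markers none passed (0 and 2 unadjusted). Their mean was −0.30, 0.15, 0.74, −0.58 and 0.89 on IKK2-CA arrays, beside −0.54 to 0.56 on the other arrays, highest on Pdx-1+/- array 1. The 5 markers of all leukocytes stood at 0.21, 0.54, 0.82, −0.02 and 1.72, and Cd52 was the 1 that rose in both comparisons (0.0964% and 0.69% of all entries). Its call against Pdx-1+/- islets was lost without control array 1, any 1 of the Pdx-1+/- arrays or IKK2-CA array 3. With both IKK2-CA array 5 and Pdx-1+/- array 4 left out, Cd52 passed there (limma, adjusted p = 0.00647), where 0.28% of all entries did. Of 11 macrophage markers none rose or fell (3 and 2 at an unadjusted p under 0.05 in either direction), with 5 and 8 higher against Pdx-1+/- and control islets, and IKK2-CA arrays read −0.13, 0.14, −0.04, −0.49 and 0.54 beside −0.42 to 0.22 on the other arrays. Without IKK2-CA array 5 and Pdx-1+/- array 4, macrophage markers were higher in 1 of 11 against Pdx-1+/- (median −0.267) and in 3 of 11 against control islets (median −0.057). Natural killer markers (8 clusters) and plasmacytoid dendritic cell markers (4) had none past the threshold, with 3 and 4 and with 1 and 2 at an unadjusted p under 0.05. The part of these cells was not tested.

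**Figure D5:**
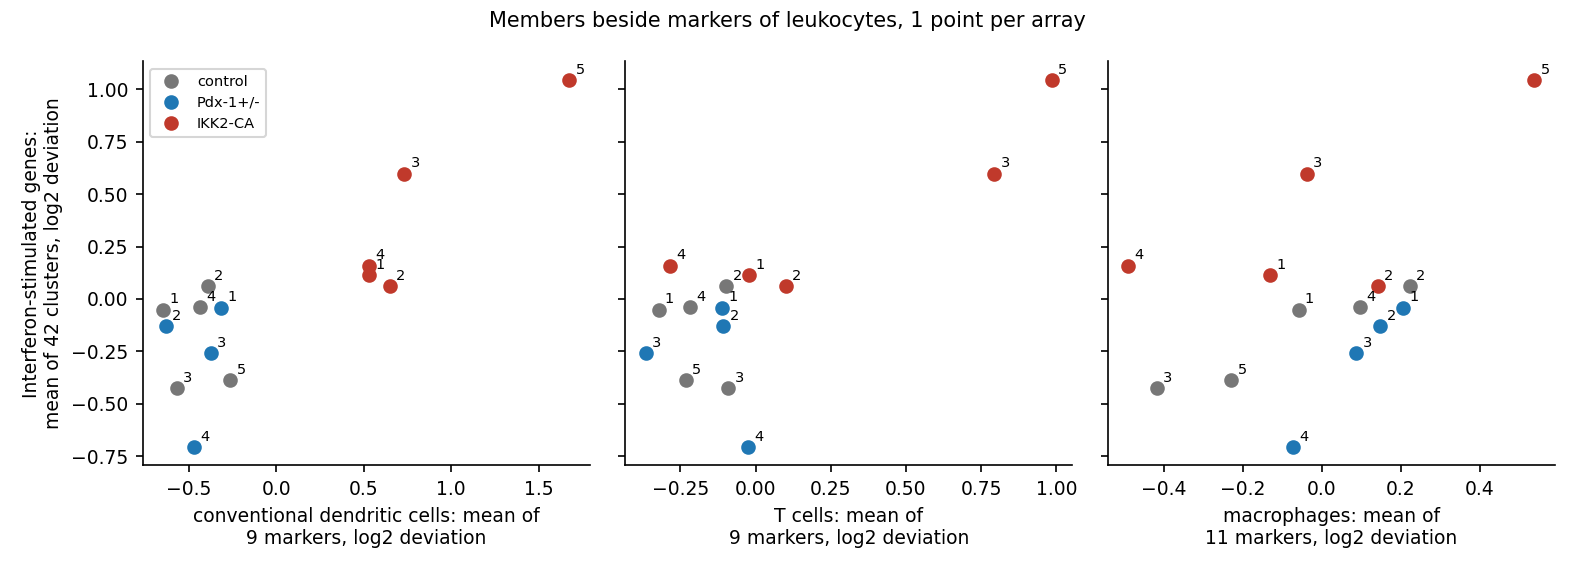
For each array (1 point, numbered within its group) the mean deviation of the 42 interferon-stimulated clusters is set against that of markers of dendritic cells (left), T cells (middle) and macrophages (right), all in log2 units. All IKK2-CA points lie right of all others for dendritic cells, and IKK2-CA arrays 3 and 5 lie farthest right for T cells.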

How the data were processed

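RNA of islets was measured on Affymetrix Mouse Gene ST 1.0 arrays, 14 in all. The authors deposited RMA values made in Affymetrix Expression Console, per the submitters' processing notes. That they are on the log2 scale was read from the range of the deposited values, and the probe annotation was GEO's platform table. Clusters with no listed gene were left out, and 1 cluster per annotation entry, the one with the highest mean, gave 20738 entries. The model had 3 group means over all 14 arrays (limma 3.58.1 in R 4.3.3, lmFit and eBayes), with Benjamini-Hochberg adjustment over all entries and a threshold of 0.05. It was tested on simulated data. The number of arrays limits the precision. Members and gene lists were chosen with earlier results of these data known, so no list is independent evidence. Values on every array are given for the regulators Irf1, Irf7, Irf9, Stat2, Socs1 and Usp18, members past the threshold, and the 4 of each class with the largest difference from Pdx-1+/- islets. Other genes are given by their difference, with named pathway genes (Ifng, Ifnb1, Ifnar1, Ifngr1, Cxcl9, Cxcl10, Irf8), those past the threshold and the widest of each list. Ikbkb, Jak2, Irf3, Ptpn6, Tlr3, Trim30a, Gbp7, Oas1a, Zbtb46 and Batf3 were named after their values were seen. Alternatives were other scaling, filters, row choices, array weights, a replicate block and arrays left out.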

Additional observations from a re-analysis of the deposited data

Results flagged for a closer look

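Within its group, 1 array lay far from the nearest of the others for 9 clusters (Dixon's test at the 5% level). That is 6.52% of 138 tests, which also covered the means of the set and of each class. Chance flags about 1 in 20, and the tests share the same arrays. IKK2-CA array 5 was the high one for Mx2 (5.51, next 4.79), Igtp/Irgm2 (8.22, next 7.38), Samhd1 (10.03, next 9.27) and Sp100 (9.48, next 8.54). Pdx-1+/- array 4 was the low one for Rsad2 (6.21, next 6.75), Ifih1 (6.96, next 7.70), Xaf1 (5.13, next 6.02) and Gbp3 (5.36, next 6.52). Control array 5 was the high one for Ifi35 (7.32, next 7.19).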

How the results depend on the processing

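Against control islets the number of interferon-stimulated clusters called, 2 in the report, was 0 with limma's trend and robust options, with only the compared groups in the fit, with every transcript cluster tested, and without Pdx-1+/- array 4, IKK2-CA array 5 and control array 3. It was 1 (Rtp4) with 1-symbol clusters only, which drops Gbp6, 4 without IKK2-CA array 5 and Pdx-1+/- array 4, and 8 with array weights (Oas2, Irf7, Ifih1, Dhx58, Rtp4, Gbp6, Irf9 and Stat2). With 1 array left out it ran from 0 to 5. With the replicate block it was 0, with adjusted p = 0.138 for Rtp4 and 0.114 for Gbp6 (limma). The shared replicate numbers showed no pairing, with correlations of same-numbered deviations between −0.387 and 0.355. The call was 2 or 3 under median centring, quantile scaling, the mean of a gene's clusters and without the lowest 30% of entries. Against Pdx-1+/- islets it was 0 under every alternative run, with a lowest adjusted p of 0.0727 (Ifit1, without IKK2-CA array 2). The median difference over the set ran from 0.47 to 0.745 against Pdx-1+/- and from 0.399 to 0.661 against control islets with 1 array left out. The type I minus interferon-gamma median against Pdx-1+/- islets, −0.029, ran from −0.292 to 0.058, lowest without Pdx-1+/- array 1. Irf1 changed sign: against Pdx-1+/- islets it was −0.06 with array weights, −0.21 without IKK2-CA array 5 and Pdx-1+/- array 4, with or without control array 3, and −0.10 to 0.52 with 1 array left out. Against control islets it was 0.03 with array weights and −0.28 to 0.06 with 1 array left out. Over all entries, 143 rose and 310 fell against control islets, beside 393 and 1013 with array weights, 97 and 103 with the block, 72 and 166 with the compared groups alone and 111 and 204 with every cluster. Except where the alternative tests fewer clusters or arrays, the cause of these changes was not tested.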
